A study of Mus musculus with 6 samples.

Results

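Zfp422, Adamts14, Tcerg1l, Trim56, Wdr63 and Gal3st4 are 6 autosomal genes, of 23621 genes in the table, that had higher counts in cortex of newborn Tle4-/- mice than in wild-type cortex. They were picked by name from earlier results of this same genotype comparison, with Fezf2 set aside. The samples were 3 Tle4-/- null mutant littermates and 3 wild-type littermates, all at postnatal day 0 and all on a mixed background of C57BL/6J, 129S6 and CD1. Tle4 encodes a Groucho-family co-repressor, and the series asks how projection neuron identities are regulated in the developing cortex. The labels give no litter, pooling or sex for a library and do not say how the null allele was made, so p-values measure the spread between these samples.

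Groucho-family proteins such as TLE4 do not bind DNA themselves. They are brought to genes by DNA-binding partners, among them HES, RUNX and TCF/LEF factors, and lower transcription there. The 6 genes have unrelated products. Zfp422 is a C2H2 zinc-finger protein, also called Krox-26. Tcerg1l belongs to a family of transcription elongation regulators. Adamts14 is a secreted metalloproteinase that removes the amino propeptide of procollagen, and Gal3st4 is a Golgi enzyme that adds sulfate to galactose on O-linked glycans. Trim56 is a RING-type ubiquitin ligase of antiviral signalling, and Wdr63 is an intermediate chain of the inner dynein arm of motile cilia.

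Libraries held 18617408 to 21632607 counts. Tle4 itself stood at 69.3, 86.8 and 86.8 CPM (the count scaled to library size) in the mutants, against 198, 142 and 166 CPM in the wild types (log2 fold change -1.06, SE 0.14, edgeR adjusted p = 0.0377). All 9 cortical projection neuron markers had counts in every library, and their summed level was 2433 to 2866 CPM in mutants and 2570 to 2997 CPM in wild types. Xist, the X-inactivation transcript, had 66194 to 79080 counts in the mutants and 11 to 37 in the wild types, and the Y-linked gene Ddx3y was at 0 to 2 counts in the mutants and in wild-type replicate 3, with 1463 and 1891 counts in the other wild types. Wild-type replicate 3 was low in both genes, so they do not show its sex. High Xist came with every mutant and no wild type, so sex and genotype cannot be told apart. Summed striatal markers were 71.6 to 91.3 CPM in mutants and 117 to 176 CPM in wild types over 9 markers, of which 1 fell past the edgeR threshold, where 0.0614% of all genes tested fell. At an unadjusted edgeR p under 0.05, 6 of the 9 were lower, against 1.73% of all genes tested. The part of striatal tissue in the results below was not tested. In bulk tissue, more cells of a type and more RNA per cell cannot be told apart.

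All 6 genes lie on the minus strand in the annotation, as do 49.7% of genes tested. RefSeq promoter windows of 250 bases before the start were at hand for 5 of them. The windows of Adamts14, Tcerg1l and Zfp422 were rich in G and C, at 76.4%, 69.6% and 71.6%, against a median of 52.4% over 31396 autosomal promoters. Trim56 was at 60.4% and Wdr63 at 46.4%. The stretches that lie upstream of every annotated start of Adamts14, Tcerg1l and Wdr63 are shown because they contrast the GC-rich and the GC-poor kind among the 6 genes, 5′ to 3′ on the minus strand, with GC boxes (GGGCGG or its reverse complement CCGCCC) in capitals.
Adamts14, chr10:61273439-61273669: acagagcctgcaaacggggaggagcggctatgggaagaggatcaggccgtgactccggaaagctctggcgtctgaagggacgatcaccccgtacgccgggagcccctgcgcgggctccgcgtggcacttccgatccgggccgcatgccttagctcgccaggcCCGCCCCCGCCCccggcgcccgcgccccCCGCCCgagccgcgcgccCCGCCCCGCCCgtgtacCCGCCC
Tcerg1l, chr7:138397731-138397980: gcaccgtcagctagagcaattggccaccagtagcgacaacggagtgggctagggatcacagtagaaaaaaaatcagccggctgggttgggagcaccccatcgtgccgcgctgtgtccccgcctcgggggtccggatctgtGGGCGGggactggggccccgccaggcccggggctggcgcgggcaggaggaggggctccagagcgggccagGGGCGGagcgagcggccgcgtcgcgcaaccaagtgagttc
Wdr63, chr3:146108131-146108286: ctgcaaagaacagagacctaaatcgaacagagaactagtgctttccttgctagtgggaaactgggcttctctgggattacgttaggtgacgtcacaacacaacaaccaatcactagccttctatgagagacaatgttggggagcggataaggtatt

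Adamts14 held 6 GC boxes, a number that 0.91% of autosomal promoters reach, and 2 of these matches share a base. Tcerg1l held 2, and the other promoters searched held none, while 33% of autosomal promoters hold at least 1. Short sequences bound by partners of Groucho proteins were searched too. The E-box CACGTG was in none of the 5 windows, against 6% of promoters. The HES-type site CACGCG was in Adamts14, against 7.8% of promoters. The RUNX site TGTGGT was in Trim56, against 14% of promoters. The TCF/LEF site CTTTGA was in none, against 13.8% of promoters. Both strands were searched, and a match is a description of these letters, not a site of binding.

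Zfp422 (ENSMUSG00000059878) lies on chromosome 6 from 116624016 to 116628999 and no annotated gene overlaps it. It had 1838, 1702 and 1784 counts in the mutant libraries, against 532, 472 and 612 in the wild types. Every mutant library lay above every wild type, and the lowest mutant was 2.61 times the highest wild type in CPM. The level was 89.4 ± 3.53 CPM in the mutants and 27.1 ± 5.85 CPM in the wild types (SD, n = 3 each), a log2 fold change of 1.72 (SE 0.16). The mutants were close to one another, with a coefficient of variation of 3.95% where counting alone gives 2.37%, whereas wild types varied by 21.6% where counting gives 4.31%.

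Tcerg1l (ENSMUSG00000091002) spans chromosome 7 from 138208974 to 138397730, and the table has no other row within 100 kb of it. It had 1337, 1226 and 1162 counts in the mutants, against 766, 709 and 572 in the wild types. The groups did not overlap, but the gap was the narrowest of the 6 genes, with the lowest mutant 1.55 times the highest wild type. The level was 62.4 ± 1.78 CPM in mutants and 33.9 ± 4.49 CPM in wild types (SD, n = 3 each), a log2 fold change of 0.88 (SE 0.12). Like Zfp422, it varied less among mutants, by 2.86% where counting gives 2.84%, than among wild types, by 13.3% where counting gives 3.83%.

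Adamts14 (ENSMUSG00000059901) spans chromosome 10 from 61197112 to 61273438. It had 213, 179 and 147 counts in the mutants, against 58, 73 and 53 in the wild types, so the groups stood apart at a low level. The level was 9.0 ± 1.19 CPM in mutants and 3.03 ± 0.223 CPM in wild types (SD, n = 3 each), a log2 fold change of 1.57 (SE 0.21). Cells of the meninges make fibrillar collagens, the substrates of this enzyme. The 9 meningeal markers summed to 199 to 407 CPM in mutants and 15.3 to 504 CPM in wild types, with 15.3 CPM in wild-type replicate 1. Adamts14 was at 2.95 CPM in that library and at 3.28 and 2.85 CPM in wild-type replicates 2 and 3. The part of meningeal tissue in the Adamts14 result was not tested.

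Trim56 (ENSMUSG00000043279) lies on chromosome 5 from 137105644 to 137116209. It had 100, 53 and 52 counts in the mutants, against 10, 25 and 13 in the wild types. Mutant replicate 1 stood well above the other mutants, yet no mutant was as low as a wild type. The level was 3.39 ± 1.12 CPM in mutants and 0.777 ± 0.314 CPM in wild types (SD, n = 3 each), a log2 fold change of 2.11 (SE 0.39). Without mutant replicate 1 it was 1.80, and without wild-type replicate 2 it was 2.48.

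Wdr63 (ENSMUSG00000043020) spans chromosome 3 from 146040526 to 146108130. It had 19, 28 and 27 counts in the mutants, against 2, 4 and 3 in the wild types. Summed over libraries and scaled to depth, the mutants held 8.26 times the wild-type counts, with a 95% interval from counting alone of 4.12 to 18.8. The gene was chosen for this difference, so the interval is not a test of it. The level was 1.25 ± 0.318 CPM in mutants and 0.148 ± 0.0406 CPM in wild types (SD, n = 3 each), a log2 fold change of 3.02 (SE 0.46). No wild-type library reached 10 counts, so this gene, like Gal3st4, passed the filter on low counts only through the mutants.

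Genes of motile cilia are known targets of RFX factors, and AGCAAC was searched as a half-site of these factors. The RefSeq window of Wdr63 held 3 matches to AGCAAC or its reverse complement GTTGCT, a number that 0.07% of autosomal promoters reach, and 12.1% hold at least 1. Zfp422 held 1 match and the other 3 windows none. This motif was searched after the sequence had been seen, so the 0.07% is a description and not a test. A stretch of 30 bases, chr3:146108054-146108083 on the minus strand, holds 2 of the matches, in capitals, and lies inside the annotated gene. These 2 matches have the same orientation, at -44 to -39 and -27 to -22. The third, GTTGCT, lies at -6 to -1. Whether any of them belongs to a full RFX site was not tested.
Wdr63 AGCAAC pair: cttAGCAACggacgcgtcctAGCAACaact

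Gal3st4 (ENSMUSG00000075593) lies on chromosome 5 from 138264921 to 138272840. Its row had 25, 13 and 36 counts in the mutants, against 0, 1 and 0 in the wild types. Scaled to depth the ratio of summed counts was 74.3, with a 95% counting interval of 12.9 to 2975. The fitted log2 fold change of 5.78 (SE 0.83) rests on 1 wild-type count and depends on the prior count.

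**Figure D1:**
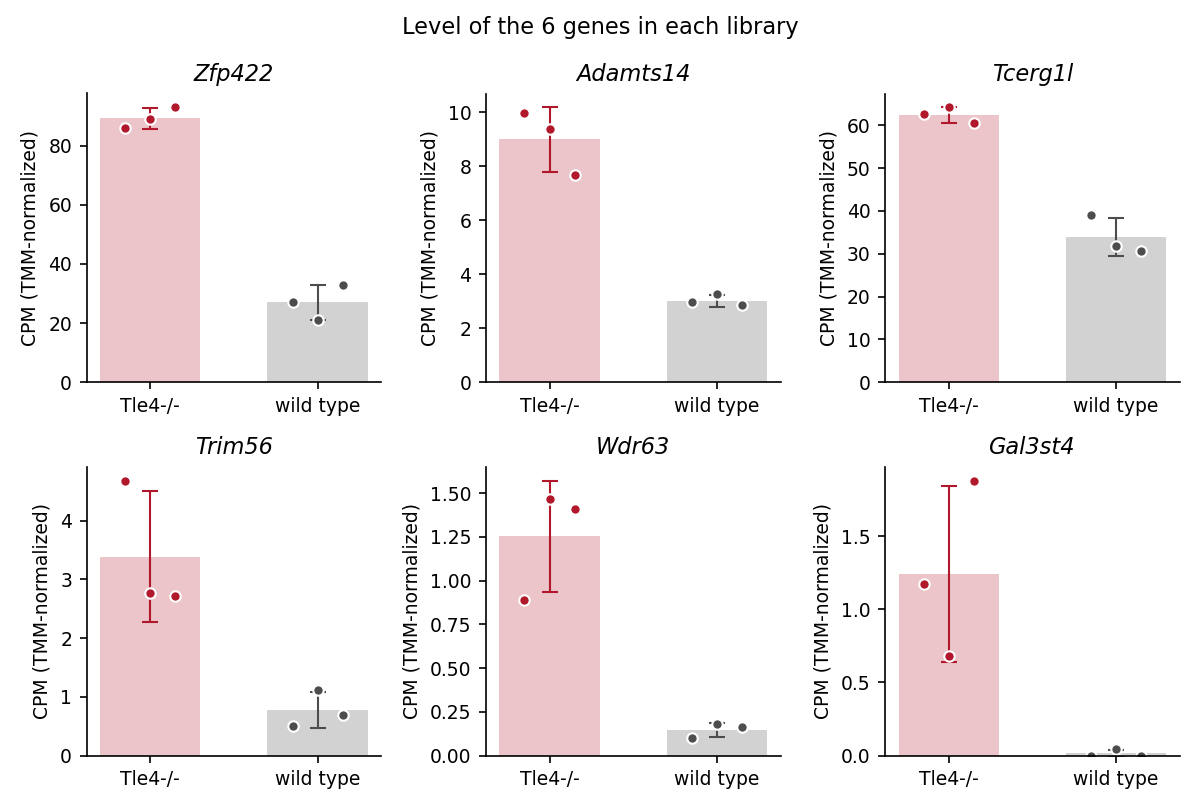
Levels of the 6 genes in CPM in each library; bars are means, error bars SD over 3 libraries, and dots are libraries in replicate order. In each panel the lowest Tle4-/- dot is above the highest wild-type dot, by 1.55 times for Tcerg1l and 2.61 times for Zfp422, and the Gal3st4 panel shows its own row alone.

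The reads of Gal3st4 cannot be separated from those of an overlapping gene. Gm43720, on the same strand from 138264952 to 138279958, is annotated with 1 transcript that joins exons of Gal3st4 to exons of the adjacent Gpc2, a glypican of developing neurons. Of the 3252 exonic bases of Gal3st4, 3221 (99%) are also exonic in Gm43720. The Gm43720 row had 0, 0 and 0 counts in the mutants, against 21, 37 and 110 in the wild types. Its counts lay in the wild types alone, where the Gal3st4 row held 1 count in all. Added together, the rows held 25, 13 and 36 counts in the mutants, against 21, 38 and 110 in the wild types, and the groups overlapped. The log2 fold change of the sum was -1.21 (SE 0.67), a combination added after the data were seen. Gm43720 alone did not pass the threshold by edgeR (adjusted p = 0.544) and did by the DESeq2 Wald test.

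The antisense row 6330418K02Rik overlaps 879 of the exonic bases of Gal3st4. It had 31, 33 and 38 counts in the mutants, against 26, 70 and 27 in the wild types, and the groups overlapped. With all 3 rows summed, the mutants held 56, 46 and 74 counts and the wild types 47, 108 and 137, and the log2 fold change was -0.72 (SE 0.40). Gpc2 had 3966, 2961 and 3951 counts in the mutants, against 3658, 3207 and 2197 in the wild types (log2 fold change 0.29, SE 0.17, edgeR adjusted p = 1.0). Higher counts of Gal3st4 in the mutants thus hold for its own row and not for the summed rows. Of the wild types, replicate 3 held the most counts in both sums. Gm43720 also shares 2376 exonic bases with Gpc2, so the sums cannot say which gene its counts came from. The source of the Gm43720 counts was not tested. The other 5 genes overlap no annotated gene.

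**Figure D2:**
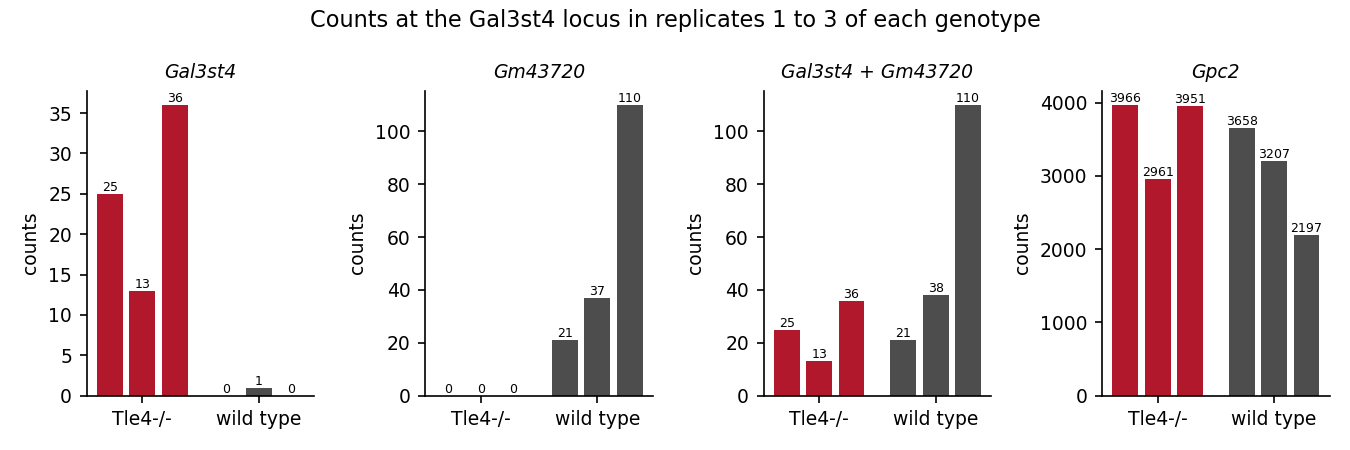
Raw counts of Gal3st4, of the overlapping Gm43720, of their sum and of the adjacent Gpc2 in replicates 1 to 3 of each genotype, each panel with its own axis from 0. Gal3st4 has 13 to 36 counts in Tle4-/- libraries and 0 to 1 in wild types, Gm43720 has 0 and 21 to 110, and the sums overlap.

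Levels of different genes were compared per length, on the authors' deposited FPKM. In mutants, Zfp422 averaged 14.2 ± 0.526 FPKM, Tcerg1l 13.6 ± 0.441, Adamts14 1.51 ± 0.204, Wdr63 0.337 ± 0.0854, Trim56 0.332 ± 0.110 and Gal3st4 0.181 ± 0.0872 (SD, n = 3). In wild types, Tcerg1l led with 7.45 ± 0.855 FPKM, then came Zfp422 with 4.33 ± 0.887, Adamts14 with 0.513 ± 0.0492, Trim56 with 0.0773 ± 0.0332 and Wdr63 with 0.0402 ± 0.0119 (SD, n = 3). Zfp422 and Tcerg1l were at about the same level in mutants, within their spread, and in wild types every Tcerg1l value was above every Zfp422 value. Wdr63, Trim56 and Gal3st4 were low in both genotypes: in mutants they stood at percentiles 9.4, 9.3 and 3.8 of the genes tested by mean FPKM. Zfp422 stood at percentile 80.7 in mutants and 51.7 in wild types. Beside them, Fezf2, the transcription factor of subcerebral projection neurons, averaged 70.1 ± 8.21 FPKM in mutants and 28.6 ± 4.23 FPKM in wild types (SD, n = 3 each).

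The values that chose the genes are given as a description. Of 16274 genes tested, 0.0492% were past the edgeR threshold and higher in mutants, and 4 of the 6 genes were among them. Of 15695 autosomal genes, 0.0319% were, namely these 4 and Fezf2. Their edgeR adjusted p were 0.00316 for Zfp422, 0.0345 for Adamts14, 0.0418 for Tcerg1l and 0.0481 for Gal3st4. Wdr63 (edgeR adjusted p = 0.0645) and Trim56 (edgeR adjusted p = 0.173) were outside the threshold. The genes past it and higher that are not autosomal were Xist and the mitochondrial mt-Co1 and mt-Co2. The mt-Co1 row had 160285 to 180109 counts in mutants and 0 to 1 in wild types. The mitochondrial mt-Nd4 row, past it as lower, had 0 to 1 counts in mutants and 46196 to 59621 in wild types. How these rows came to switch was not tested. Among autosomal genes higher in mutants, Gal3st4 was the last inside the threshold and Wdr63 the first outside. Between Wdr63 and Trim56 came Rpl15, a ribosomal protein gene (76.4 CPM in mutants, 33.3 CPM in wild types, edgeR adjusted p = 0.0691), Rab33b, a Golgi GTPase (34.9 and 20.6 CPM, edgeR adjusted p = 0.0897), and 9330111N05Rik (1.57 and 0.373 CPM, edgeR adjusted p = 0.149). All 6 genes had libraries that did not overlap, as 4.18% of genes tested did in that direction. In the authors' deposited table the adjusted p of the 6 genes ran from 6.96e-17 for Zfp422 to 0.00073 for Trim56. There, 68 of 23621 rows had an adjusted p under 0.05, of which 25 were higher in mutants, 19 of them autosomal. These values come from the same libraries and comparison, so they are not separate support.

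Only Zfp422 stayed past the threshold by edgeR whichever library was left out (edgeR adjusted p 0.00235 to 0.0192). Tcerg1l did so only without wild-type replicate 1 (0.0242), with adjusted p up to 0.178. Adamts14 (0.0749 to 0.156), Gal3st4 (0.0551 to 0.242), Wdr63 (0.0901 to 0.269) and Trim56 (0.154 to 0.714) passed in none of the 6 edgeR fits. No log2 fold change turned sign in those fits, as it could not where every mutant library lay above every wild type. The DESeq2 Wald test put all 6 genes past its threshold, which 0.357% of all genes it tested passed. Its adjusted p ran from 1.14e-19 for Zfp422 to 0.0202 for Wdr63. Under limma-voom, where 0.0799% of all genes passed, Zfp422 (adjusted p = 0.00519) and Gal3st4 (0.0334) passed. Adamts14 and Tcerg1l (both 0.0555) did not. These fits reuse the libraries that chose the genes, so they describe dependence on the processing and are not separate support.

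**Figure D3:**
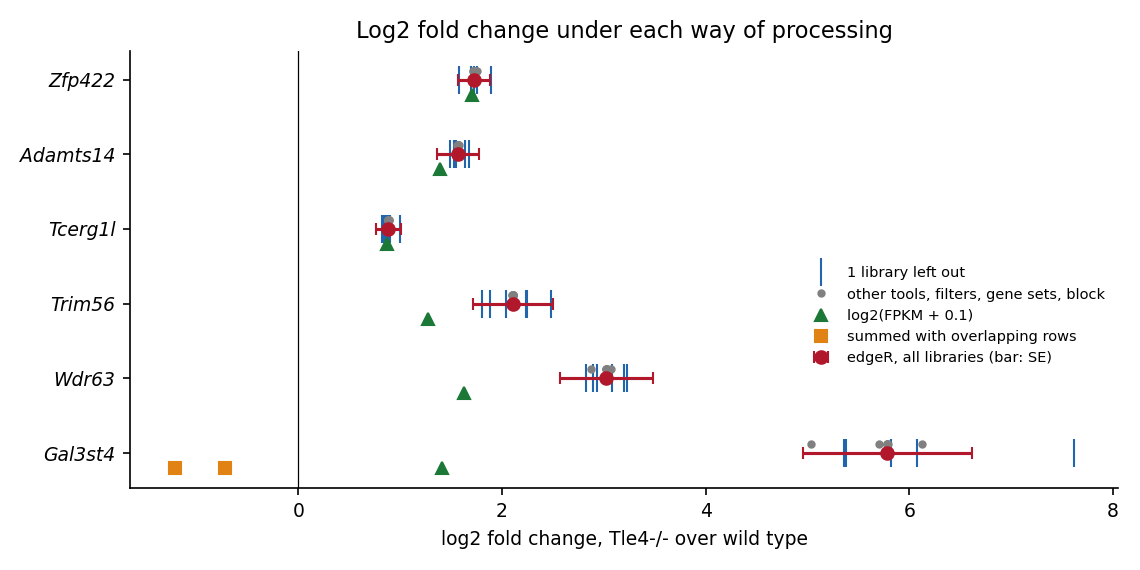
Log2 fold changes (Tle4-/- over wild type) of the 6 genes from edgeR on all libraries (red, bar SE), with 1 library left out (blue), with other settings (gray), from log2(FPKM + 0.1) (green) and with overlapping rows summed (orange, Gal3st4 only). Gal3st4 lies at 5.78 on its own row and at -0.72 and -1.21 when summed.

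Genes beside the 6 were examined for a change shared by a chromosomal stretch. Within 100 kb the table holds 32 other rows, of which 25 were tested. None passed the threshold by edgeR or limma-voom, and DESeq2's Wald test called 1, Gm43720, which was also the only one at an unadjusted edgeR p under 0.05 (0.111% of all genes tested pass the edgeR threshold, 0.0799% that of limma-voom, 0.357% that of DESeq2 and 3.45% the unadjusted limit). Of the 25, 13 lay above 0, and the median log2 fold change was 0.02, against -0.01 for all genes tested. Neighbours of Gal3st4 made up 13 of the 25 tested, and Tcerg1l had none. Trim56 and Gal3st4 lie 1.149 Mb apart on chromosome 5. The 40 tested genes between them had a median log2 fold change of 0.00, 20 lay above 0, and 0 passed the edgeR threshold or an unadjusted p under 0.05.

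The nearest tested neighbours did not pass the threshold by edgeR, and each is given with its value. On either side of Zfp422, the row RP24-171J16.3 had a log2 fold change of -0.44 (SE 0.50) and the row Gm5580 of 0.21 (SE 0.35). Rassf4, a Ras-association gene at 4.009 kb, had 126, 120 and 133 counts in mutants and 100, 136 and 95 in wild types. Beside Adamts14, Tbata had 31, 25 and 22 counts in mutants and 21, 29 and 23 in wild types. Pald1, on its other side, had a log2 fold change of 0.16 (SE 0.12). Beside Trim56, Muc3a gave 0.66 (SE 0.44). Beside Wdr63, Syde2 gave -0.14 (SE 0.21), and the ion channel genes Mcoln3 and Mcoln2 had 0 to 2 counts in every library. BC037034, next to Gal3st4, gave 0.10 (SE 0.11).

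**Figure D4:**
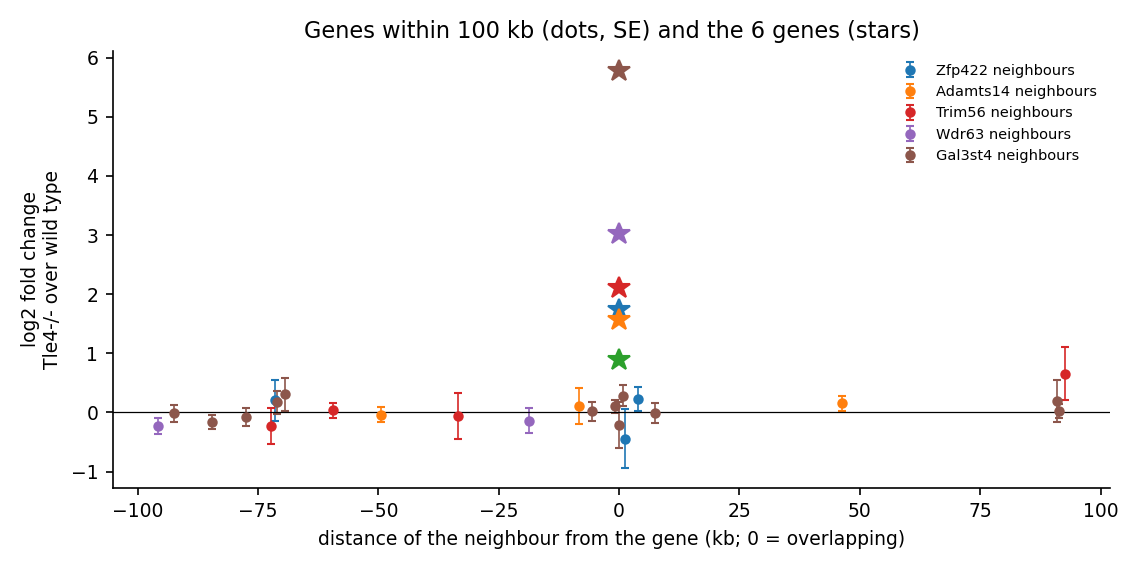
Log2 fold change (Tle4-/- over wild type, SE bars) of tested genes within 100 kb against their distance in kb; stars at 0 are the 6 genes in the same colours, and Gm43720, at -8.85, is left off the scale. Apart from Gm43720 the neighbours lie between -0.44 and 0.66. The 6 genes, chosen for being higher in this comparison, lie at 0.88 to 5.78, with Gal3st4 on its own row.

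Relatives and pathway genes of the 6 were examined in 9 lists. Of 442 such genes tested, 0 passed the edgeR threshold, and DESeq2's Wald test and limma-voom also called 0. Of all genes tested, 0.111% passed by edgeR, 0.357% by the Wald test and 0.0799% by limma-voom, so 0 lies near that background. At an unadjusted edgeR p under 0.05 there were 13 (2.94%, against 3.45% of all genes tested). The median log2 fold change was -0.04, against -0.01 for all genes tested. Counts above 0 in each list stand beside the 48.7% of all genes tested that lay above 0.

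Among 321 numbered zinc-finger genes other than Zfp422, 111 lay above 0, where 48.7% of all genes tested did, and the median was -0.06. In 12 of them the mutant libraries all lay below the wild types, as in 3.75% of all genes tested, and in 0 they all lay above, as in 4.18%. At an unadjusted edgeR p under 0.05, 0 were higher and 5 lower, against 1.71% and 1.73% of all genes tested. The smallest p values belonged to Zfp503, a repressor expressed in the striatum (6.46 ± 0.961 CPM in mutants and 9.79 ± 1.71 CPM in wild types, SD, n = 3 each, log2 fold change -0.60), and Zfp90 (22.2 and 37.3 CPM, -0.75). Without wild-type replicate 2, Zfp451 passed the threshold as lower (log2 fold change -1.26, edgeR adjusted p = 0.0322).

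Of 13 FF-domain and elongation genes listed for Tcerg1l, 4 lay above 0, and the median log2 fold change was -0.06. Ccnt1, a cyclin of elongation control, gave -0.37 (SE 0.33) and Polr2a, the large subunit of RNA polymerase II, -0.12 (SE 0.12).

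The enzymes closest to Adamts14 had lower mean levels in mutants and did not pass the threshold by edgeR. Adamts2 had 582, 757 and 560 counts in mutants, against 700, 922 and 898 in wild types (log2 fold change -0.38, SE 0.17). Adamts3 had 1354, 1478 and 1411 counts in mutants, against 1767, 1634 and 1516 in wild types, and the groups overlapped once scaled to depth (log2 fold change -0.19, SE 0.12). Per length, Adamts3 averaged 12.8 FPKM in mutants and 14.7 FPKM in wild types, above Adamts2 at 3.30 and 4.34 FPKM and Adamts14 in both genotypes. Of 16 procollagen processing genes 9 lay above 0 (median 0.10), with Col5a1, a fibrillar collagen chain, at -0.81 (SE 0.30). Of 17 ADAMTS genes 9 lay above 0 (median 0.02). Adamts19 had the smallest p there (3.47 CPM in mutants, 2.09 CPM in wild types, log2 fold change 0.72), followed by Adamts1 (0.59, SE 0.26).

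Gal3st3, the sulfotransferase of this family with the highest level here, had 17.9 FPKM in mutants and 17.8 FPKM in wild types, both far above Gal3st4. Gal3st1, which makes the sulfatide of myelin, gave a log2 fold change of 0.53 (SE 0.29), and Gal3st2 had 0 to 2 counts per library. Of 15 genes of galactose sulfation and O-glycans, 10 lay above 0 (median 0.04). St3gal1, a sialyltransferase of the same glycans, had the smallest p (130 ± 39.9 CPM in mutants and 84.7 ± 9.13 CPM in wild types, SD, n = 3 each, log2 fold change 0.62).

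Trim56 acts with STING and TLR3. Tmem173, which encodes STING, had 16, 13 and 13 counts in mutants, against 12, 36 and 17 in wild types. Ticam1, the adaptor of TLR3, had a log2 fold change of 0.04 (SE 0.29). Of 20 genes of STING, TLR3 and interferon response, 14 lay above 0 (median 0.08), with Irf7 at 0.83 (SE 0.38) and Stat2 at 0.25 (SE 0.14). Of 13 TRIM genes 7 lay above 0 (median 0.02). Trim25, another antiviral ubiquitin ligase, had 9.69 ± 2.41 CPM in mutants and 14.6 ± 3.79 CPM in wild types (SD, n = 3 each, log2 fold change -0.59). Trim37 gave 0.17.

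Of cilia genes, 0 passed the threshold by edgeR, which 0.111% of all genes tested passed. Of 11 genes of multiciliated cells, 10 lay above 0, where 48.7% of all genes tested did. The median log2 fold change of the 11 was 0.39, against -0.01 for all genes tested. Their summed level over all 15 listed genes was 59.2 to 62.7 CPM in mutants and 39.7 to 52.7 CPM in wild types, with no overlap. Foxj1, the regulator of motile cilia, had 170, 157 and 153 counts in mutants, against 76, 138 and 74 in wild types (log2 fold change 0.78, SE 0.23, edgeR adjusted p = 1.0), and Tekt1, a tektin of the axoneme, gave 0.57 (SE 0.23). Of 18 axonemal dynein genes 12 lay above 0 (median 0.13), with Dnaic2 at 1.30 (SE 0.45) and Dnal1 at 0.51 (SE 0.21). Wdr78, another dynein intermediate chain, gave 0.48 (SE 0.29). The part of ciliated cells in the Wdr63 result was not tested. Choroid plexus, whose cells also carry cilia, stood out in mutant replicate 3: its 6 markers summed to 2.0 to 99.2 CPM in mutants and 1.4 to 3.5 CPM in wild types, 3 of the 6 had counts in every library, and Ttr had 1789 counts in that library and 1 to 5 in each other. Wdr63 had 27 counts there and 28 in mutant replicate 2.

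**Figure D5:**
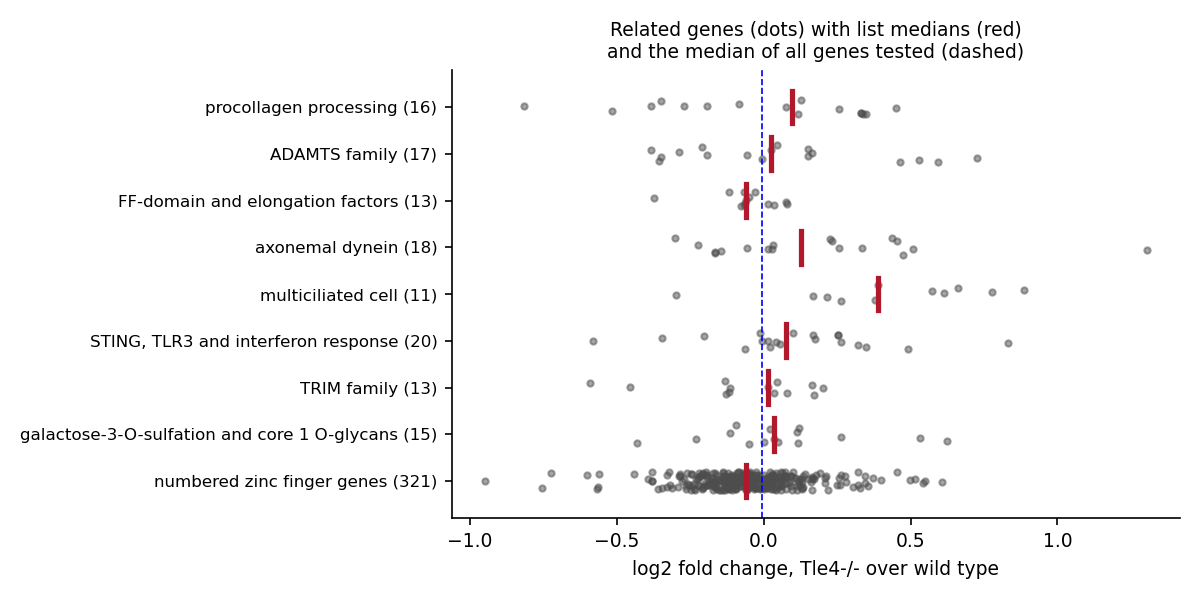
Log2 fold change (Tle4-/- over wild type) of each tested gene in the 9 lists (dots), with list medians (red) and the median of all genes tested (dashed); numbers in brackets are genes tested. The multiciliated list has the highest median, at 0.39, and the zinc-finger and FF-domain lists the lowest, at -0.06.

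The genes most like each of the 6 in profile were found by Pearson correlation of log2 CPM over the 6 libraries, as a description over few points that fall into 2 genotypes. For Zfp422 they were Zbtb10 and 3110002H16Rik (both r = 0.992), for Adamts14 Ets2 (0.998) and Rab33b (0.985), and for Tcerg1l Lrrc48 (0.990) and Rpl15 (0.988). For Trim56 they were Bace2 (0.986) and Actb (0.985), for Wdr63 Cr1l (0.978) and Dnah10 (0.971), and for Gal3st4 Cc2d2a (0.978) and Ackr1 (0.975). Ets2, an ETS transcription factor, had 66.4 CPM in mutants and 47.1 CPM in wild types. None of these genes passed the edgeR threshold. Correlation does not measure the size of a change, and their log2 fold changes ran from 0.14 for Zbtb10 to 1.20 for Rpl15.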

How the data were processed

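RNA was measured in P0 cortex of 3 Tle4-/- and 3 wild-type mice. Tools named, per the submitters' processing notes, are HISAT2 2.0.4, edgeR and StringTie, and builds GRCm38.p4 and mm10. Which tool counted the reads, with which annotation and whether by strand, is not stated there. Per the file headers, the authors deposited 1 table with a whole-number count and an FPKM value per gene and library, mean FPKM per genotype, and, from their own comparison, a raw and an adjusted p-value. In 25 of 23621 rows a symbol that had become a date was restored from the gene ID.

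Counts were used as deposited. Genes were kept by filterByExpr, scaled by TMM and fitted with edgeR 4.0.16 in R 4.3.3 (robust quasi-likelihood test, 2-sided, Benjamini-Hochberg adjustment over 16274 genes, threshold 0.05). Log2 fold changes are Tle4-/- over wild type, and the SE is the size of that change divided by the square root of F. CPM are TMM-normalized. A test on simulated data for this comparison, with 16274 genes and 200 changed, made 178 calls of which 7 were false. Recovery was 74% at a 2-fold change and 97% at a 4-fold change. The changed genes were drawn from those above a mean of 1 CPM, with spread taken from the fitted trend. The recovery therefore does not cover Wdr63 and Gal3st4, which lie below that level.

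The 6 genes and all lists were chosen with earlier results of these data known, and the genotype difference was part of that choice, so it is described and not tested. The text names the 6 genes, Tle4 and Fezf2, rows overlapping them, the nearest tested gene on each side within 100 kb, the 2 genes of smallest p in each related list, the 2 genes of most similar profile, and the genes next to the threshold. Other genes were named after seeing their values, and a few results that this rule would name are not reported here.

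Count ratios carry exact 95% binomial intervals, from scipy 1.17.1, that cover counting error only. They leave out the spread between libraries and the choice of the genes, and are not tests. Promoters are RefSeq sequences of GRCm38.p6, with 5 of the 6 genes matched. Exon overlaps come from GENCODE M21 on GRCm38. The alternatives were DESeq2 1.42.0 size factors and Wald test, limma-voom (limma 3.58.1), 2 other filters, a replicate block, each library left out, 2 reduced gene sets, counts summed with overlapping rows, and limma on log2(FPKM + 0.1).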

Additional observations from a re-analysis of the deposited data

How the results depend on the processing

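Leaving out 1 library at a time, log2 fold changes ran from 1.58 to 1.89 for Zfp422, 1.49 to 1.67 for Adamts14, 0.82 to 1.0 for Tcerg1l, 1.80 to 2.48 for Trim56, 2.83 to 3.22 for Wdr63 and 5.35 to 7.61 for Gal3st4, and the genes called numbered 8 to 19, with 4 to 8 higher in mutants. Without mutant replicate 3 there were 8 calls and without mutant replicate 2 there were 5 higher. Related genes called numbered 0 to 1 and neighbours 0. The log2 fold change of Gal3st4 reversed to -0.72 with overlapping rows summed and to -1.21 with Gm43720 alone, the second chosen after seeing the data. It was 5.03 by limma-voom. On log2(FPKM + 0.1), Trim56 gave 1.27, Wdr63 1.62 and Gal3st4 1.41, since a pseudocount shrinks low genes. Against 18 calls with 8 higher, the DESeq2 Wald test made 58 with 21 higher and 1 neighbour, Gm43720. Without X, Y and mitochondrial genes there were 10 with 3 higher, and without mitochondrial genes and 67 rows that switch on or off between libraries 11 with 3 higher, partly because those genes were left out. With a replicate block there were 9 calls with 5 higher, and of the 6 genes only Zfp422 passed. Without the X, Y and mitochondrial genes Tcerg1l (edgeR adjusted p = 0.0544) and Gal3st4 (0.0621) did not pass, nor did they without the on and off rows (0.0515 and 0.0561). With no filter beyond 1 count Wdr63 passed (edgeR adjusted p = 0.0377), and on log2(FPKM + 0.1) Adamts14 (limma adjusted p = 0.102) and Gal3st4 (0.71) did not. Same-numbered samples did not deviate together (r = -0.063, 0.1 and -0.018), so the numbers do not pair them, and mutant replicate 1 correlated best with wild-type replicate 3. Wdr63 and Gal3st4 could not be fitted with a filter at a mean of 1 CPM. In the other 126 values compared, direction and size stayed within the spread between replicates or, for counts, within 1.5 times. At 0 to 4 wild-type counts, the depth limits Wdr63 and Gal3st4.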
